A study of Mus musculus with 94 samples.

Results

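RTS0064428 and RTS0063488 are 2 of the 20175 probes counted by digital spatial profiling (DSP) of mouse kidney sections. They were chosen by the day 14 tubular values: among probes lower with entospletinib than with vehicle in tubules on day 14, they had the smallest adjusted p-values. The day 14 tubular values are therefore described here without a test. Tests were run on values outside that contrast: tubules on days 1 and 7, macrophage segments, and differences between compartments and regions. Of these, the day 14 macrophage segments share their sections and regions with the tubular values that chose the probes. RTS0064428 had counts in 93 and RTS0063488 in 88 of the 94 segments. The probe files hold identifiers without gene names, so which transcripts the probes bind is not given here, and no role is assigned to either.

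The kidneys came from male C57BL/6 mice that underwent unilateral ischemia-reperfusion injury (IRI), an injury made by closing and reopening the blood supply of a kidney. Mice received vehicle (V) or the spleen tyrosine kinase (SYK) inhibitor entospletinib (E) before IRI, with repeated injections after day 1, and kidneys were taken on days 1, 7, and 14, giving the groups V IRI D1, E IRI D1, V IRI D7, E IRI D7, V IRI D14, and E IRI D14. Control kidneys (CTRL) were uninjured. They are contralateral kidneys per the labels, whereas the methods also name kidneys of healthy mice. The labels and methods also differ on how long before IRI the first dose was given, and neither gives an age. Each of the 7 groups had 2 sections, told apart by the prefix of the sample labels, which does not state in words that a section is a separate mouse. Regions of interest (ROIs) lay in the cortex or the medulla and were split into 46 macrophage segments (IBA1-positive) and 48 tubular segments (panCK-positive, with or without CD10).

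The tubular epithelium is the main target of ischemic injury. Recruited and resident macrophages clear debris and also sustain inflammation when repair fails, which links acute kidney injury to chronic disease. SYK is a kinase that carries signals from immune receptors in leukocytes, macrophages included. A DSP segment is a patch that holds several cells, so a higher value can mean more cells that make a transcript or more transcript per cell, and these cannot be told apart.

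Counts are of unique molecular identifiers (UMIs), and levels are given as counts per 1e6 counts (CPM), computed from the counts summed over the ROIs of a section and compartment. Tubular sums held 9404235 to 25729550 counts and macrophage sums 117693 to 2773456. The macrophage sums of V IRI D7 and V IRI D14 were the deepest, at 1222388 to 2773456 counts, against 117693 to 719242 in the other groups. Depth thus followed the groups in macrophages, and the design cannot tell the 2 apart. Fits on macrophage sums thinned to 117693 counts were run as an alternative. A single macrophage segment held as few as 16693 counts, where 1 count is a large step in CPM. The median probe stood at 19.2 to 29.0 CPM in tubular sums and 21.2 to 30.2 CPM in macrophage sums, which gives a scale for both probes. Marker genes of the compartments could not be looked up without gene names, so the purity of the segments was not tested.

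In control tubules neither probe stood far above the median probe. RTS0064428 stood at 22.1 CPM in section 1 and 26.9 CPM in section 2, at the 56.4th and 50.0th percentile of all probes. RTS0063488 stood at 10.7 and 12.7 CPM, at the 18.5th and 10.2th percentile. RTS0064428 was thus at about the level of the median probe, and RTS0063488 was below it. Negative probes could not be told apart, so whether these levels stood above background was not tested.

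On day 1 after IRI, tubules showed no called change. RTS0064428 measured 31.7 and 25.2 CPM in V IRI D1, and RTS0063488 measured 13.8 and 12.2 CPM. The log2 fold change from control was 0.14 ± 0.14 (SE) for RTS0064428 and 0.08 ± 0.20 for RTS0063488, and neither reached an adjusted p below 0.05 with an absolute log2 fold change above 1, the rule for a call (edgeR's quasi-likelihood test, adjusted p = 1.00 for both). Of all probes, 0.149% (30) were called higher, and 0, 0, 18, and 5 without CTRL section 1, CTRL section 2, V IRI D1 section 1, and V IRI D1 section 2. E IRI D1 tubules were close to V IRI D1 tubules, at 29.4 and 28.6 CPM for RTS0064428 and 14.1 and 13.7 CPM for RTS0063488. The differences were 0.06 ± 0.14 and 0.12 ± 0.19 on the log2 scale (adjusted p = 1.00 for both). In that comparison edgeR called 0.0% of probes lower and 0 higher. At an unadjusted threshold of 0.05, 97 probes were lower and 40 higher, and by DESeq2 2 were called lower and 0 higher. In the medulla RTS0064428 measured 34.9 and 51.8 CPM in V IRI D1. It measured 23.6 and 24.9 CPM in CTRL and 31.2 and 19.4 CPM in E IRI D1. RTS0063488 measured 16.6 and 21.0, 12.2 and 11.4, and 15.6 and 11.8 CPM in these groups. Each value came from 1 ROI, and in medullary regions alone neither probe was called. The cortex of RTS0064428 measured 31.0 and 21.7 CPM in V IRI D1 and 20.5 and 28.1 CPM in CTRL.

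By day 7 both probes were higher in vehicle tubules than in control tubules, and entospletinib tubules were lower than vehicle tubules. RTS0064428 measured 90.5 and 82.5 CPM in V IRI D7, a mean of 86.5 ± 5.70 CPM (SD, n = 2) against 24.5 ± 3.41 CPM in control. In E IRI D7 it measured 28.7 and 24.2 CPM. All 6 V IRI D7 segments, from 51.9 to 115 CPM, lay above the highest control segment at 31.4 CPM and the highest E IRI D7 segment at 32.7 CPM. Segments of a section are not independent, and how many of all probes separate in this way was not counted. The counts of segments and ROIs here and below are therefore descriptions only. The fitted log2 fold change was 1.66 ± 0.14 for V IRI D7 against CTRL (adjusted p = 0.00031) and -1.57 ± 0.14 for E IRI D7 against V IRI D7 (adjusted p = 0.000578). Both comparisons of a day share the vehicle sums, and the control tubular sums also enter the day 14 contrast behind the probes' label as raised by injury.

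RTS0063488 moved in the same directions with a smaller size. It measured 42.1 and 26.0 CPM in V IRI D7, a mean of 34.0 ± 11.4 CPM (SD, n = 2), and 16.0 and 13.7 CPM in E IRI D7. The 6 V IRI D7 segments ran from 19.4 to 63.0 CPM, all above the highest control segment (14.6 CPM) and the highest E IRI D7 segment (17.6 CPM). The log2 fold change was 1.37 ± 0.19 against CTRL (adjusted p = 0.00613) and -1.04 ± 0.18 for E IRI D7 against V IRI D7 (adjusted p = 0.0228). The latter was just past the fold threshold and was not called in 3 of 4 fits that left out a section: -0.73 without V IRI D7 section 1 (adjusted p = 0.155), -1.06 without E IRI D7 section 1 (adjusted p = 0.16), and -1.01 without E IRI D7 section 2 (adjusted p = 0.235). It was not called in cortical regions alone (-0.86) or medullary regions alone (-1.27) either. Among all probes, 0.853% (172) were called higher in V IRI D7 than in CTRL and 0.634% (128) lower in E IRI D7 than in V IRI D7. These counts depended on single sections. The 172 became 66 without CTRL section 1 and 99 without V IRI D7 section 1, and the 128 became 25 and 13 without E IRI D7 sections 1 and 2 and 59 without V IRI D7 section 1. The calls of both probes against CTRL, and that of RTS0064428 between E IRI D7 and V IRI D7, were kept in these fits.

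The entospletinib effect in tubules was set against that of day 1 directly. The effect on day 7 minus that on day 1 was -1.62 ± 0.19 on the log2 scale for RTS0064428 (adjusted p = 0.0150), one of the 0.124% of probes (25) for which edgeR called this difference. This call was lost in 4 of 8 fits that left out a section, an alternative added after the values were seen: without E IRI D7 section 1 (-1.66, adjusted p = 0.0876), without E IRI D7 section 2 (-1.59, adjusted p = 0.134), without V IRI D1 section 2 (-1.47, adjusted p = 0.101), and without V IRI D7 section 2 (-1.62, adjusted p = 0.0532). In these 8 fits edgeR called from 1 probe (without E IRI D7 section 2) to 75 probes (without E IRI D1 section 1). For RTS0063488 the difference was -1.16 ± 0.26 (adjusted p = 0.281), which was not called. It was called with TMM normalization (-1.25, adjusted p = 0.0414) and by DESeq2 (-1.28, adjusted p = 0.000183). Of all 20175 probes, TMM called 0 higher and 43 lower for this difference, and DESeq2 3 higher and 184 lower.

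**Figure D1:**
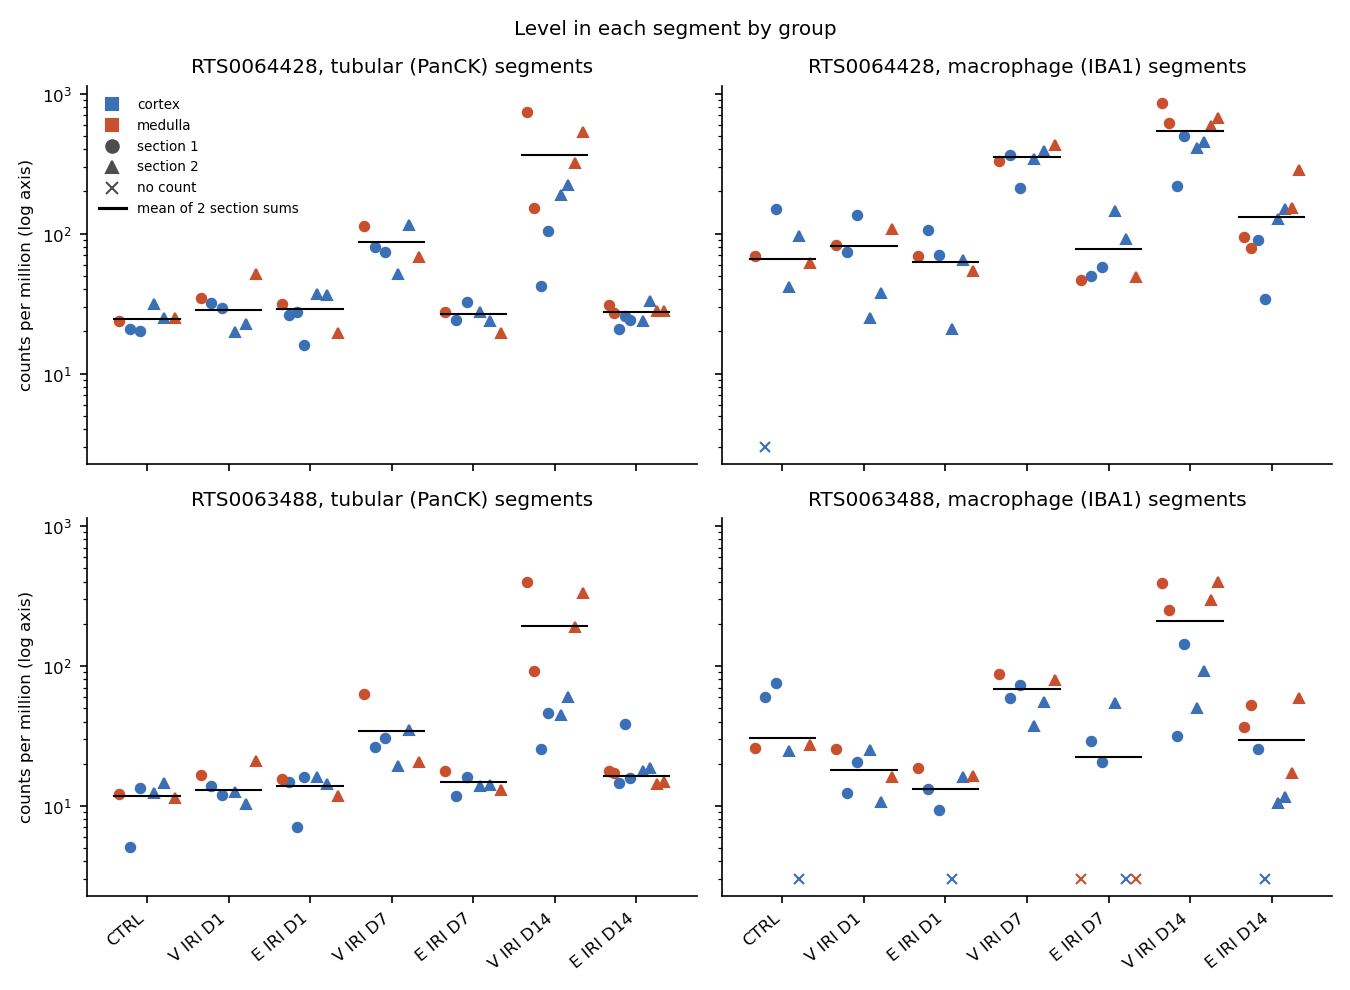
Level of each probe in each of the 94 segments, in CPM on a log axis, by group (left column tubular, right column macrophage segments). Color gives the region, circles and triangles the section, crosses at the foot of a panel segments without a count, and black lines the mean CPM of the 2 section sums. In each panel the lines of V IRI D7 and V IRI D14 stand highest, single macrophage segments of RTS0063488 in these groups overlap those of other groups, and V IRI D14 tubules spread from 41.9 to 741 CPM for RTS0064428.

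On day 14, the values that chose the probes were high in vehicle tubules and much closer to control in entospletinib tubules. RTS0064428 measured 368 and 358 CPM in V IRI D14 and 26.7 and 28.5 CPM in E IRI D14. RTS0063488 measured 196 and 192 CPM in V IRI D14 and 16.6 and 16.3 CPM in E IRI D14, the latter above the 10.7 and 12.7 CPM of control. The fitted log2 fold changes were 3.66 and 3.83 for V IRI D14 against CTRL, and -3.44 and -3.29 for E IRI D14 against V IRI D14, for RTS0064428 and RTS0063488 in that order. In these comparisons 3.53% of all probes were called higher in V IRI D14 than in CTRL and 3.18% lower in E IRI D14 than in V IRI D14, and nothing is read from these shares since the day 14 values chose the probes. The median probe itself shifted by -0.30 and 0.33 in these fits, and with TMM normalization by -0.09 and 0.09, where the fold changes of RTS0064428 were 3.88 and -3.69 and those of RTS0063488 4.05 and -3.54. The next probe in the order of the rule, RTS0063749, just outside the pair, had a log2 fold change of -2.89 and measured 148 ± 25.2 CPM in V IRI D14 and 16.6 ± 0.878 CPM in E IRI D14 tubules (SD, n = 2).

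The V IRI D14 sums of the 2 sections lay close together, whereas their ROIs were widely spread. In section 1, a single medullary ROI held 3565 of the 4034 counts of RTS0064428, or 88.4%, although it held 43.9% of all counts of that section. It measured 741 CPM, against 151 CPM in the other medullary ROI and 104 and 41.9 CPM in the cortex. In section 2 the medullary ROIs measured 320 and 532 CPM and the cortical ROIs 190 and 223 CPM.

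RTS0063488 followed the same order of ROIs in section 1, at 397 CPM in that medullary ROI, 91.7 CPM in the other, and 46.3 and 25.5 CPM in the cortex. In section 2 it measured 190 and 330 CPM in the medulla and 44.5 and 59.6 CPM in the cortex. Without the ROI that led section 1, an alternative added after the values were seen, that section fell to 76.1 CPM for RTS0064428 and 39.8 CPM for RTS0063488. With that ROI included, all 8 V IRI D14 segments lay above the highest control segment for both probes. Leaving out an ROI cannot change the rank of the others, and these values chose the probes, so nothing is read from this order. For RTS0064428 all 8, and for RTS0063488 7 of 8, lay above every E IRI D14 segment. The highest of these was a cortical E IRI D14 segment with 3 counts of RTS0063488 among 77621 (38.6 CPM).

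Macrophage segments, which the choice of the probes did not use, showed both probes high in vehicle sections on day 14 and lower with entospletinib. On day 14 these segments came from the same ROIs and sections as the tubular values that chose the probes, so they are not independent support. RTS0064428 measured 75.3 and 57.0 CPM in control macrophages, from only 12 and 17 counts, with exact 95% Poisson intervals of 38.9 to 131 and 33.2 to 91.3 CPM (counting error only). It measured 98.7 and 64.1 CPM in V IRI D1, 306 and 395 CPM in V IRI D7, and 529 and 545 CPM in V IRI D14. V IRI D7 and V IRI D14 lay above control in every section, and V IRI D1 overlapped it.

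The log2 fold change of RTS0064428 from control was 0.44 ± 0.40 on day 1 (adjusted p = 0.791), 2.47 ± 0.36 on day 7 (adjusted p = 4.32e-05), and 3.11 ± 0.36 on day 14 (adjusted p = 2.03e-07). All 6 V IRI D7 segments (210 to 428 CPM) and all 8 V IRI D14 segments (218 to 855 CPM) lay above the highest control segment, which had 4 counts among 26729 (149.7 CPM). On day 1, 0 of 6 V IRI D1 segments did. Of the 18541 probes tested in macrophages, 0.48% (89), 1.72% (319), and 3.55% (658) were called higher than control on days 1, 7, and 14. With any section of the compared groups left out, the 89 became 15 to 47 and the 319 became 79 to 162. The 658 became 315 and 276 without CTRL sections 1 and 2 and 359 without V IRI D14 section 2.

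RTS0063488 was called higher in vehicle macrophages on day 14 but not on days 1 and 7. It measured 37.6 and 23.5 CPM in control macrophages, from 6 and 7 counts, then 20.9 and 15.5 CPM in V IRI D1, 76.1 and 60.6 CPM in V IRI D7, and 189 and 232 CPM in V IRI D14. The log2 fold change was -0.54 ± 0.49 on day 1 (adjusted p = 0.814), 1.26 ± 0.38 on day 7 (adjusted p = 0.0521), and 2.93 ± 0.34 on day 14 (adjusted p = 1.2e-07). Its segments overlapped those of control: 2 of 6 V IRI D7 segments and 6 of 8 V IRI D14 segments lay above the highest control segment at 74.8 CPM, and the lowest were at 36.9 and 31.3 CPM. The day 7 value missed the threshold narrowly and passed it in medullary regions alone (1.72, adjusted p = 0.0325). The day 14 value was not called in cortical regions alone (1.56, adjusted p = 0.0769).

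With entospletinib, macrophage segments were lower for both probes on days 7 and 14. RTS0064428 measured 52.0 and 102 CPM in E IRI D7 and 79.9 and 181 CPM in E IRI D14, below every vehicle section of the same day. Of the vehicle segments, 6 of 6 on day 7 and 7 of 8 on day 14 lay above the highest entospletinib segment of the day (146 and 283 CPM). The log2 fold change from vehicle was -2.35 ± 0.35 on day 7 (adjusted p = 2.94e-05) and -2.05 ± 0.30 on day 14 (adjusted p = 1.11e-05). The E IRI D7 sum of section 2 held only 12 counts of this probe. The day 7 call was lost without E IRI D7 section 1 (-1.85, adjusted p = 0.115), which leaves that shallow section alone in its group. The day 14 value was -2.80 without E IRI D14 section 2 and -1.61 without E IRI D14 section 1.

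RTS0063488 measured 18.9 and 25.5 CPM in E IRI D7, from 12 and 3 counts, and 33.5 and 25.4 CPM in E IRI D14, from 18 and 15 counts. These levels were near the median probe. Of the vehicle segments, 5 of 6 on day 7 and 6 of 8 on day 14 lay above the highest entospletinib segment of the day (54.7 and 59.0 CPM). The log2 fold change from vehicle was -1.66 ± 0.36 on day 7 (adjusted p = 0.00237) and -2.85 ± 0.27 on day 14 (adjusted p = 2.57e-09). On day 14 it had the smallest p-value among the probes lower with entospletinib in macrophages, in the sections whose tubular values chose it. The day 7 call was lost without E IRI D7 section 1 (-1.48, adjusted p = 0.539), in cortical regions alone (-0.91, adjusted p = 0.282), and when all sums were thinned to the lowest total (-1.75, adjusted p = 0.2). Among all probes 2.38% (441) were called lower on day 7 and 1.55% (287) on day 14. The 441 became 8 without E IRI D7 section 1, 291 without V IRI D7 section 1, and 234 without V IRI D7 section 2, and the 287 became 133 without E IRI D14 section 1 and 146 without V IRI D14 section 2.

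On day 1 neither probe was called between E IRI D1 and V IRI D1 macrophages. RTS0064428 measured 75.0 and 49.4 CPM and RTS0063488 13.8 and 12.4 CPM in E IRI D1, with log2 differences of -0.38 ± 0.35 and -0.48 ± 0.49 (adjusted p = 0.997 for both). Here edgeR called 0.0% of probes lower and 0 higher. At an unadjusted threshold of 0.05, 357 probes were lower and 525 higher, and by DESeq2 0 were called in either direction.

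The later effects were not called different from that of day 1 in macrophages. For RTS0064428 the day 7 effect minus the day 1 effect was -1.98 ± 0.50 (adjusted p = 0.133) and the day 14 effect minus the day 1 effect -1.67 ± 0.46 (adjusted p = 0.192). For RTS0063488 these differences were -1.18 ± 0.64 (adjusted p = 0.846) and -2.37 ± 0.61 (adjusted p = 0.127). With edgeR, 0.0324% of probes (6) were called for the first of these differences and 0.00539% (1) for the other. With a section left out these counts ran from 0 to 35 and from 0 to 26. The day 14 difference of RTS0064428 was called without E IRI D14 section 2 (-2.37). With segments as replicates in DESeq2 both of its differences were called (-2.05 on day 7 and -1.78 on day 14). That setting treats ROIs of a section as replicates, and it called 373 and 302 of 7385 probes for these differences.

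**Figure D2:**
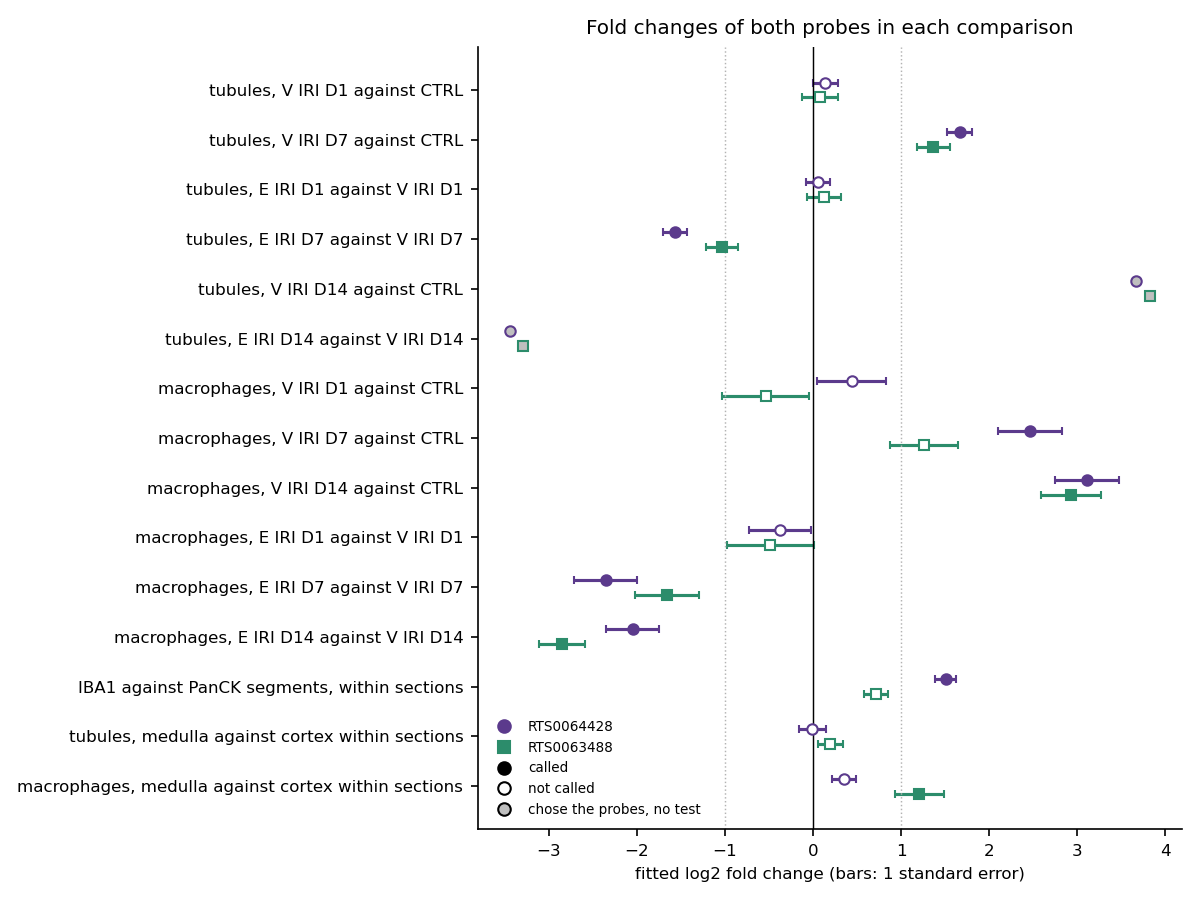
Fitted log2 fold change of both probes in each comparison, with bars of 1 standard error. Filled symbols are called (adjusted p below 0.05 and absolute log2 fold change above 1, the dotted lines), open symbols are not, and gray symbols without bars are the day 14 tubular contrasts that chose the probes. Entospletinib values lie left of 0 on days 7 and 14 in both compartments.

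RTS0064428 was higher in macrophage than in tubular segments of the same sections. Over the 10 sections without day 14, the log2 difference of IBA1 against panCK segments was 1.51 ± 0.12 (adjusted p = 5.7e-12), and 1.79% of all probes were called higher in IBA1 segments. With all of these 10 sections in edgeR's quasi-likelihood fit, which left out day 14, it was called in each of their groups. It was 1.20 ± 0.33 in CTRL (adjusted p = 0.0495), 1.48 ± 0.21 in V IRI D1 (adjusted p = 2.35e-07), and 1.07 ± 0.24 in E IRI D1 (adjusted p = 0.00549). It was 1.97 ± 0.12 in V IRI D7 (adjusted p = 5.04e-22) and 1.10 ± 0.28 in E IRI D7 (adjusted p = 0.0292). The shares of all probes called in either direction were 1.2%, 2.98%, 1.07%, 4.97%, and 0.709% in that order. The p-values rest on a spread shared by all groups and drawn toward that of other probes, not on the 2 sections of a group alone. With a section left out, V IRI D7 was the group whose call was kept in both fits (1.73 and 2.18). The call was lost in CTRL without either section (0.99 and 1.54), in V IRI D1 without section 1 (1.30), in E IRI D1 without section 1 (0.74), and in E IRI D7 without either section (1.67 and 0.89), and 1 section then stood for its group.

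Within ROIs, the IBA1 segment exceeded the tubular segment for RTS0064428 in 6 of 6 ROIs of V IRI D1, V IRI D7, and E IRI D7, in 8 of 8 of V IRI D14 and E IRI D14, and in 5 of 6 of CTRL and E IRI D1. The ratio ran from 2.82 to 6.61 in V IRI D7 and from 1.15 to 5.19 in V IRI D14. In the exceptions it was 0 in CTRL, where the IBA1 segment had no count, and 0.564 in E IRI D1.

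The compartment difference of RTS0063488 was smaller and was not called. Over the same 10 sections it was 0.72 ± 0.13 on the log2 scale, with an adjusted p of 5.43e-05 but below the fold threshold. By group it ran from -0.13 ± 0.42 in E IRI D1 (adjusted p = 0.966) to 1.11 ± 0.46 in CTRL (adjusted p = 0.306), and it was 0.99 ± 0.15 in V IRI D7 (adjusted p = 2.09e-07). The V IRI D7 value passed the fold threshold with TMM normalization (1.04), by DESeq2 (1.03), and without V IRI D7 section 1 (1.14). IBA1 segments exceeded tubular segments in 5 of 6 ROIs of CTRL, 4 of 6 of V IRI D1 and of E IRI D1, 6 of 6 of V IRI D7, 3 of 6 of E IRI D7, 7 of 8 of V IRI D14, and 5 of 8 of E IRI D14.

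With all sections, the injury and entospletinib effects of day 7 were not called different between compartments. For V IRI D7 against CTRL, the macrophage effect minus the tubular effect was 0.77 ± 0.31 for RTS0064428 (adjusted p = 0.54) and -0.12 ± 0.44 for RTS0063488 (adjusted p = 0.989). For E IRI D7 against V IRI D7 it was -0.87 ± 0.27 (adjusted p = 0.112) and -0.67 ± 0.40 (adjusted p = 0.676). The latter value of RTS0064428 was called without E IRI D7 section 2 (-1.08, adjusted p = 0.0303). With edgeR, 0.0942% of probes (19) were called for the former comparison and 1.2% (242) for the latter, and with a section left out the 242 ran from 1 (without E IRI D7 section 1) to 585 (without E IRI D7 section 2).

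By region, RTS0063488 was called higher in the medulla than in the cortex in macrophages over all sections, though not in each of them. Over the 14 sections the log2 difference was 1.21 ± 0.28 (adjusted p = 0.0201), against 0.218% of 14228 probes (31) called higher in the medulla, a count that became 20 without E IRI D14 section 1. The medullary CPM was above the cortical CPM in 11 sections and below it in 3. In V IRI D14 the medullary sums measured 319 and 342 CPM and the cortical sums 96.4 and 69.8 CPM, and in E IRI D14 43.0 and 48.2 CPM against 12.1 and 11.0 CPM, the latter from 2 and 4 counts. The sections that went the other way were CTRL section 1, with 69.1 CPM in the cortex and 25.9 CPM in the medulla from 3 counts each, and both sections of E IRI D7. In E IRI D7 the cortex measured 24.8 and 39.2 CPM, from 12 and 3 counts, and the medullary sums had 0 counts of RTS0063488 in 150398 and in 41102, where the exact 95% Poisson intervals reach 24.5 and 89.8 CPM (counting error only). The call rested on the day 14 vehicle sections: it was lost without V IRI D14 section 1 (1.04, adjusted p = 0.0722) and without V IRI D14 section 2 (0.95, below the fold threshold). DESeq2 also did not call it (0.79, adjusted p = 0.189).

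For RTS0064428 the regional difference in macrophages was 0.35 ± 0.13 (adjusted p = 0.159), with the medulla above the cortex in 9 of 14 sections. Its medullary sums in V IRI D14 measured 737 and 625 CPM and its cortical sums 381 and 428 CPM. The medulla was thus above the cortex in both vehicle sections of that day for both probes.

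In tubules without day 14 the medulla and cortex were not called apart for either probe. The log2 difference was -0.01 ± 0.15 for RTS0064428 (adjusted p = 1.00) and 0.19 ± 0.14 for RTS0063488 (adjusted p = 0.596), and 0.104% of all probes (21) were called higher in the medulla, or 7 to 29 with a section left out. The V IRI D7 sections went opposite ways: RTS0063488 measured 63.0 CPM in the medulla and 28.9 CPM in the cortex of section 1, and 20.6 and 28.3 CPM in section 2. On day 14, which is a description, vehicle tubules of the medulla measured 364 and 272 CPM of RTS0063488 and those of the cortex 34.3 and 52.2 CPM.

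Of 5 effects that were tested for a difference between medulla and cortex, none was called different for these probes. The entospletinib effect of day 1, and the macrophage effects of days 1 and 7, were not tested in this way. In tubules the medullary minus the cortical effect of V IRI D1 against CTRL was 0.65 ± 0.51 for RTS0064428 and 0.53 ± 0.66 for RTS0063488, that of V IRI D7 against CTRL 0.14 ± 0.47 and 0.43 ± 0.55, and that of E IRI D7 against V IRI D7 -0.33 ± 0.45 and -0.29 ± 0.51. The shares of all probes called by edgeR were 2.76%, 0.0149%, and 0.109%. In macrophages it was 0.75 ± 0.62 and 2.31 ± 0.92 for V IRI D14 against CTRL (adjusted p = 0.999 and 0.933) and -0.03 ± 0.43 and -0.01 ± 0.45 for E IRI D14 against V IRI D14, with 0.0141% and 0.0492% of probes called.

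**Figure D3:**
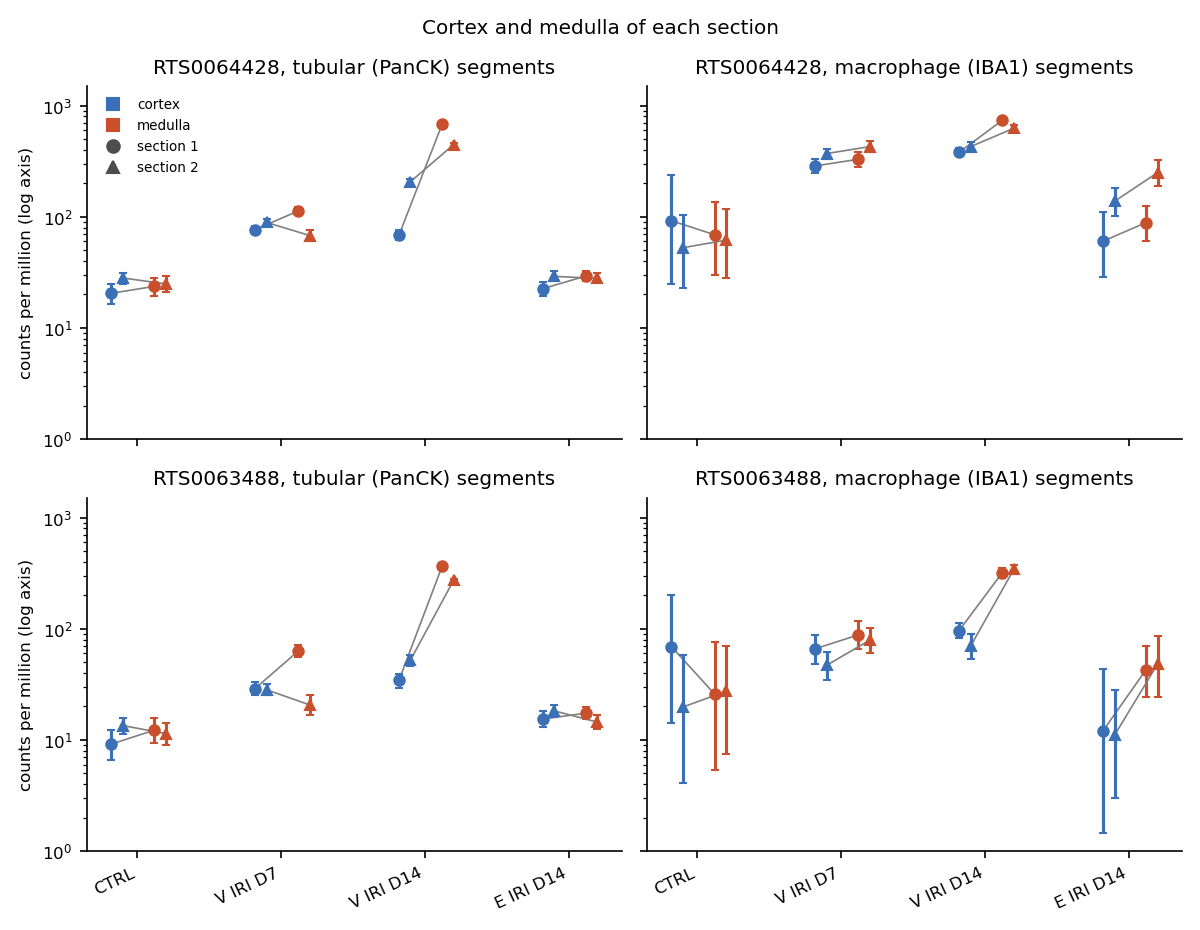
Level of each probe in the cortex and medulla of each section, in CPM on a log axis, for CTRL, V IRI D7, V IRI D14, and E IRI D14. Gray lines join the regions of a section, and bars are exact 95% Poisson intervals, which cover counting error only. In V IRI D14 the medulla lies above the cortex in both sections, both compartments, and for both probes.

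The 2 probes were not in a fixed proportion. In tubular sums there were 31.5 to 62.3 counts of RTS0063488 per 100 counts of RTS0064428, and in macrophage sums 14.0 to 50.0. In V IRI D7 the proportion was 46.5 and 31.5 in tubules and 24.9 and 15.4 in macrophages. Over the 10 sections without day 14 the log2 ratio was lower in macrophages in 9, with a mean difference of -0.77 ± 0.43 (SD), given as a description. Between regions of macrophages the direction varied. Over all 14 sections the log2 ratio in the medulla minus that in the cortex averaged 0.15 ± 1.23 (SD), positive in 10 and negative in 4. In V IRI D14, 25.3 and 16.3 counts of RTS0063488 per 100 of RTS0064428 were found in the cortex and 43.4 and 54.7 in the medulla. The opposite order was seen in CTRL section 1 (75.0 in the cortex and 37.5 in the medulla), V IRI D1 section 2 (44.4 and 15.0), and E IRI D7 (46.2 and 30.0 against 0 and 0), from 12 counts or fewer of RTS0063488 in each sum.

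**Figure D4:**
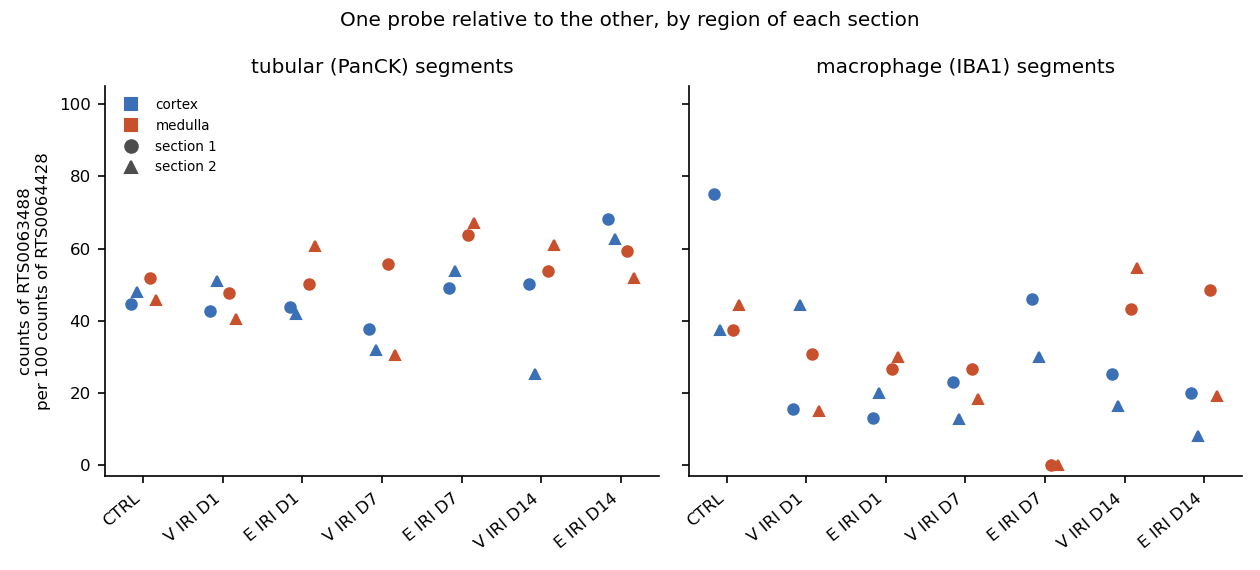
Counts of RTS0063488 per 100 counts of RTS0064428 in the cortex and medulla of each section, by group and compartment. Circles and triangles are the sections and color is the region. In V IRI D14 macrophages the medulla (43.4 and 54.7) lies above the cortex (25.3 and 16.3), whereas 4 macrophage sections show the opposite order, and the 2 points at 0 are E IRI D7 medullary sums without a count of RTS0063488.

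The pattern of each probe over the 14 tubular sums was close to that of other probes, as a description that includes the day 14 sums. By Pearson's r of log2 CPM, RTS0064428 was most like RTS0062868 (0.992), RTS0064427 (0.990), and RTS0063077 (0.989), and over the 14 macrophage sums its r with these was 0.966, 0.955, and 0.850. RTS0063488 was most like RTS0077264 (0.989), RTS0078352 (0.988), and RTS0076313 (0.987), with 0.844, 0.855, and 0.825 in macrophages. The 2 probes had an r of 0.986 with each other in tubules and 0.901 in macrophages. The 99th percentile of r over all other probes was 0.946 and 0.941 in tubules, so high values were common, and all sums share the same 7 groups and library totals.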

How the data were processed

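DSP counts were read for 94 segments of 14 sections in 7 groups, assigned by their labels. The authors deposited raw counts of UMIs per probe, which the GeoMx NGS Pipeline had produced (version 3.1.1.5 in the file headers, another in the labels) before any background evaluation, filtering, or normalization. The paper excluded 2 samples without naming them in its text, so none was left out here.

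For either compartment, the ROIs of a section were added up, and sections served as replicates (n = 2 per group). The study instead used each ROI as a replicate in DESeq2. Where sections do not come from separate mice, p-values measure the spread between sections only. That spread was estimated over all groups of a fit and drawn toward that of other probes. Very small p-values rest on this shared estimate, not on the 2 sections of a group alone. Probes were filtered by filterByExpr (minimum count 10, minimum total 15), which kept both probes and all 20175 in tubules, 18541 in macrophages, and 14228 in macrophage regions. Upper quartile factors were used, with the quasi-likelihood test of edgeR (version 4.0.16, robust, R 4.3.3) with Benjamini-Hochberg adjustment over all probes tested. A call needed an adjusted p below 0.05 and an absolute log2 fold change above 1, and differences between effects needed the adjusted p alone. Standard errors were obtained from the log2 fold change and the F statistic. The tubular fit used the 10 sums without day 14, since the day 14 tubular sums chose the probes, and shared a single estimate of the spread. Macrophage fits used 14 sums. Compartment and region fits had the section as a block. With 1 section left out, the lone section of its group was assumed to vary like the others.

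Alternatives were TMM, DESeq2 (version 1.42.0), no filter, the label prefix as a replicate block, cortex or medulla alone, segments as replicates, thinning to 117693 counts, and each section left out, not all for every comparison. The scripts were tested on simulated counts with known changes. The probes named were both members, for each the 3 probes of highest Pearson r over the tubular sums (log2 CPM, prior count 2), and the next probe of the rule. The members, comparisons, and lists were chosen with earlier results of these data known. Files do not pair probe identifiers with genes, so gene lists, markers, and negative probes were not used here.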

Additional observations from a re-analysis of the deposited data

Results flagged for a closer look

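The entospletinib effect on RTS0064428 in tubules differed between days. The day 7 effect minus the day 1 effect was -1.62 on the log2 scale (edgeR's quasi-likelihood test, adjusted p = 0.0150), and E IRI D7 lay below V IRI D7 in both sections. The difference was not called in 4 of 8 fits that left out a section, where it was -1.66 to -1.47.

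Segments of each group and compartment were checked with Dixon's test for a single value far from the others. Of 28 sets, 3 held such a segment, all for RTS0063488 in tubules, where chance gives about 1 in 20. In CTRL, a cortical ROI of section 1 measured 5.09 CPM (12 counts among 2356385), below the next segment at 11.4 CPM. In V IRI D7, the medullary ROI of section 1 measured 63.0 CPM (286 counts), above the next at 34.6 CPM. Its section is the one whose removal lowers the day 7 values. In E IRI D14, a cortical ROI of section 1 measured 38.6 CPM, above the next at 18.6 CPM, from 3 counts among 77621.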

How the results depend on the processing

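Over 540 values from alternatives, 479 kept their direction and their side of the threshold, which includes values called in neither fit. Of the others, 30 lost a call, 12 gained a call, and 19 changed direction. Alternatives for the differences between days or compartments and for single groups in the compartment comparison were added after the data were seen, 7 DESeq2 values had no adjusted p and were left out, and none was run for the differences between regions in effects. No call was lost with TMM, without a filter, with segments as replicates (run for effects between groups and between days), or with day 14 sums in the fit (run in tubules and the compartment comparison over all sections). Whether the label prefix pairs sections was not settled. The correlation of deviations had a median of 0.334 in tubules and was above 0.1 in 15 of 21 pairs of groups. In macrophages the median was 0.026, with 6 of 21 above 0.1. With the prefix as a replicate block, run for effects between groups and between days, no call changed. E IRI D7 against V IRI D7 in tubules was -1.57 for RTS0064428 and -1.03 for RTS0063488, and the day 7 minus day 1 effect of RTS0064428 was -1.63. Compartment and region fits already had the section as a block.

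For RTS0063488, cortical regions alone gave -0.013 for V IRI D1 against CTRL and -0.86 for E IRI D7 against V IRI D7 in tubules, and 1.56 for V IRI D14 against CTRL and -0.91 for E IRI D7 against V IRI D7 in macrophages. Medullary regions alone gave -0.32 for E IRI D1 against V IRI D1 (-0.64 for RTS0064428) and -1.27 for E IRI D7 against V IRI D7 in tubules, and 1.72 for V IRI D7 against CTRL in macrophages. With thinning, macrophages gave -0.043 for V IRI D1 against CTRL (RTS0064428), and for RTS0063488 0.39 for E IRI D1 and -1.75 for E IRI D7, each against V IRI of that day. With day 14 sections in the fit, the tubular regional difference of RTS0064428 was 0.32. DESeq2 gave 0.79 for the macrophage regional difference of RTS0063488. In the thinned compartment fit RTS0063488 did not pass the filter, and RTS0064428 was 2.29. In medullary regions alone the day 7 entospletinib fold of RTS0063488 in macrophages is set by sums of 0 counts and is not given. In single regions, IBA1 against panCK of RTS0064428 was 1.10 in CTRL, 0.96 in E IRI D1, and 1.12 in E IRI D7 in the cortex and 1.27, 1.18, and 0.74 in the medulla, none of them called, and the day 7 minus day 1 effect in medullary tubules was -1.14 (not called). For RTS0063488 in the medulla, IBA1 against panCK was 0.23 in E IRI D1, 1.10 in V IRI D7 (called), and -8.68 in E IRI D7, which rests on sums of 0 counts and depends on the prior count, and the macrophage minus tubular effect of V IRI D7 against CTRL was 0.065.

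Some values passed the threshold under an alternative alone. For RTS0063488 these were the day 7 minus day 1 effect in tubules with TMM (-1.25), DESeq2 (-1.28), and segments as replicates (-1.13), and IBA1 against panCK in V IRI D7 with TMM (1.04) and DESeq2 (1.03). For that tubular effect, TMM called 43 probes lower, DESeq2 184, and segments as replicates 209, against 25 in the main fit. For RTS0064428 the values were the macrophage effects of day 7 and day 14 minus day 1 with segments as replicates (-2.05 and -1.78). In that setting 373 and 302 of 7385 probes were called. Fewer counts enter the thinned and single-region fits, and the cause was not tested further.

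Leaving out sections gave, for V IRI D1 against CTRL in tubules, -0.029 to 0.29 (RTS0064428) and -0.0071 to 0.16 (RTS0063488), and for E IRI D1 against V IRI D1 -0.094 to 0.22 (RTS0064428). E IRI D7 against V IRI D7 ran from -1.30 to -0.73 in tubules and from -1.80 to -1.48 in macrophages for RTS0063488, and from -2.64 to -1.85 in macrophages for RTS0064428. The regional difference ran from -0.11 to 0.088 in tubules (RTS0064428) and from 0.95 to 1.33 in macrophages (RTS0063488). The day 7 minus day 1 effect of RTS0064428 ran from -1.79 to -1.47 in tubules, and its day 14 minus day 1 effect from -2.37 to -1.20 in macrophages. IBA1 against panCK of RTS0064428 ran from 0.99 to 1.54 in CTRL, 1.30 to 1.59 in V IRI D1, 0.74 to 1.30 in E IRI D1, and 0.89 to 1.67 in E IRI D7, and that of RTS0063488 from 0.83 to 1.14 in V IRI D7. The macrophage minus tubular effect ran from -0.59 to 0.20 for V IRI D7 against CTRL (RTS0063488) and from -1.08 to -0.30 for E IRI D7 against V IRI D7 (RTS0064428).

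Counts over all probes moved by over 1.5 times in 19 of 23 comparisons with all sections kept and in 21 with a section left out. In medullary regions alone, 508 probes instead of 30 were called higher in V IRI D1 than in CTRL tubules and 115 instead of 0 lower in E IRI D1 than in V IRI D1 tubules. In macrophages on day 14, thinning left 274 instead of 658 higher in V IRI than in CTRL and 97 instead of 287 lower in E IRI than in V IRI.

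As the mean of segment CPM instead of the CPM of summed counts, V IRI D14 tubules stood at 288 CPM for RTS0064428 and 148 CPM for RTS0063488. Macrophage sums of CTRL and E IRI groups held 3 to 107 counts of these probes, which limits the precision of their levels.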
